A study of Mus musculus with 6 samples.

Results

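Macrophages take up modified lipoproteins, microbes and dying cells through a set of surface receptors, and the 10 genes described here are the scavenger and efferocytosis receptors Cd36, Msr1, Marco, Mrc1, Mertk, Axl, Trem2, Stab1 and Scarb1 together with Gas6, a secreted ligand of Axl and Mertk. They were chosen by gene symbol, as all rows of the deposited expression table that carry 1 of these names, and are 10 of the 54532 genes listed. All 10 passed the filter on low values and are among the 12755 genes tested, Marco only through the libraries that had received LPS. The cells were bone marrow-derived macrophages (BMDMs), which are primary macrophages grown in culture from wild-type C57BL/6 mouse marrow with medium conditioned by L929 cells, a fibroblast line that secretes the growth factor M-CSF. The 6 RNA-seq libraries fall into 3 groups of 2, namely cells left untreated (Untr), cells given 100 ng/ml of the bacterial endotoxin LPS for 2 h (LPS), and cells pretreated for 6 h with 5 mM of the biguanide drug metformin and then given the same LPS dose for 2 h (Met + LPS). No group received metformin alone, so the effect of metformin was measured only on top of LPS. The study seeded its cultures in duplicate, and the labels do not tie same-numbered libraries to the same animals, so that p-values measure the spread between these libraries, which may be technical.

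Scavenger receptors bind polyanionic ligands such as oxidised or acetylated LDL and bacterial surface molecules. Class A receptors (Msr1, Marco) are trimeric with a collagen-like domain, class B receptors (Cd36, Scarb1) span the membrane at both ends and handle lipids, and Stab1 and the mannose receptor Mrc1 clear matrix fragments and glycoproteins from outside the cell. Efferocytosis is the engulfment of apoptotic cells. Its TAM receptor kinases, Tyro3, Axl and Mertk, do not bind the dying cell itself but the bridging proteins Gas6 and protein S (Pros1), which attach to phosphatidylserine on its surface. Trem2 recognises lipids and lipoproteins and signals through the adaptor Tyrobp. In resting tissue macrophages these receptors are known for silent clearance, and their level is known to shift when the cell meets a bacterial stimulus.

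Levels are given in TPM (transcripts per 1000000 transcripts), which are read counts per length of gene, brought to an equal sum in every library. A TPM value is therefore a share of the RNA of a library, and in these bulk samples fewer cells of a type and less RNA per cell cannot be told apart. Differences were tested with limma on log2(TPM + 1) over all 12755 genes, and a gene is said to have risen or fallen where its Benjamini-Hochberg adjusted p was under 0.01. On this scale the median gene stood at -0.48 after LPS against untreated cells and at -0.48 in Met + LPS against untreated cells, but at -0.03 in Met + LPS against LPS. A second scaling divided each library by the median of its ratios to the gene means (rescaled values), which brought the median gene to -0.01 for LPS against untreated cells. Whole reads could be recovered from the TPM, and the libraries held 25448763 to 30757666 of them. All 10 macrophage marker genes (among them Adgre1, Csf1r and Lyz2) were at 41.3 TPM or more in every library, with summed levels of 58372 to 59961 TPM in untreated, 48633 to 49081 TPM in LPS and 41692 to 41753 TPM in Met + LPS libraries. Markers of other cells summed to far less, with 7.83 to 19.9 TPM for 7 neutrophil genes (18.5 to 19.9 in untreated, 7.83 to 13.4 in LPS and 18.4 to 19.9 in Met + LPS, most of it Elane), 2.35 to 6.16 TPM for 7 dendritic cell genes (highest in Met + LPS), 2.72 to 6.92 TPM for 5 T cell genes (nearly all of it Cd4), 0.766 to 3.18 TPM for 5 B cell genes, 0.409 to 0.846 TPM for 5 fibroblast genes and at most 0.365 TPM for 5 erythroid genes. Cd3g, Hbb-bs and Hbb-bt were at 0 in every library.

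In untreated BMDMs the levels spanned from Cd36, with a mean of 1069 TPM, and Gas6, with 1022 TPM, down to Marco, with 0.0704 TPM. Between them came Trem2 (276 TPM), Mrc1 (234 TPM), Stab1 (207 TPM), Axl (120.2 TPM), Scarb1 (68.1 TPM), Msr1 (61.9 TPM) and Mertk (52.9 TPM). After LPS the order of the means was Cd36, Gas6, Msr1, Mrc1, Trem2, Axl, Stab1, Scarb1, Mertk and Marco, so that Msr1 had moved from the eighth place to the third. Met + LPS libraries showed the same order as LPS libraries. In none of the 3 groups did the libraries of neighbours in this order overlap. A comparison between genes depends on the gene length used for TPM, which here fitted the joined exons of each gene. For Trem2 these span 4946 bases although the transcript listed in the file has 1088, and for Stab1 10288 bases against 413. For Msr1 they span 6344 bases against 1424, and for Scarb1 8500 against 2521. The places of these genes in the order, that of Msr1 included, therefore depend on the length used.

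**Figure D1:**
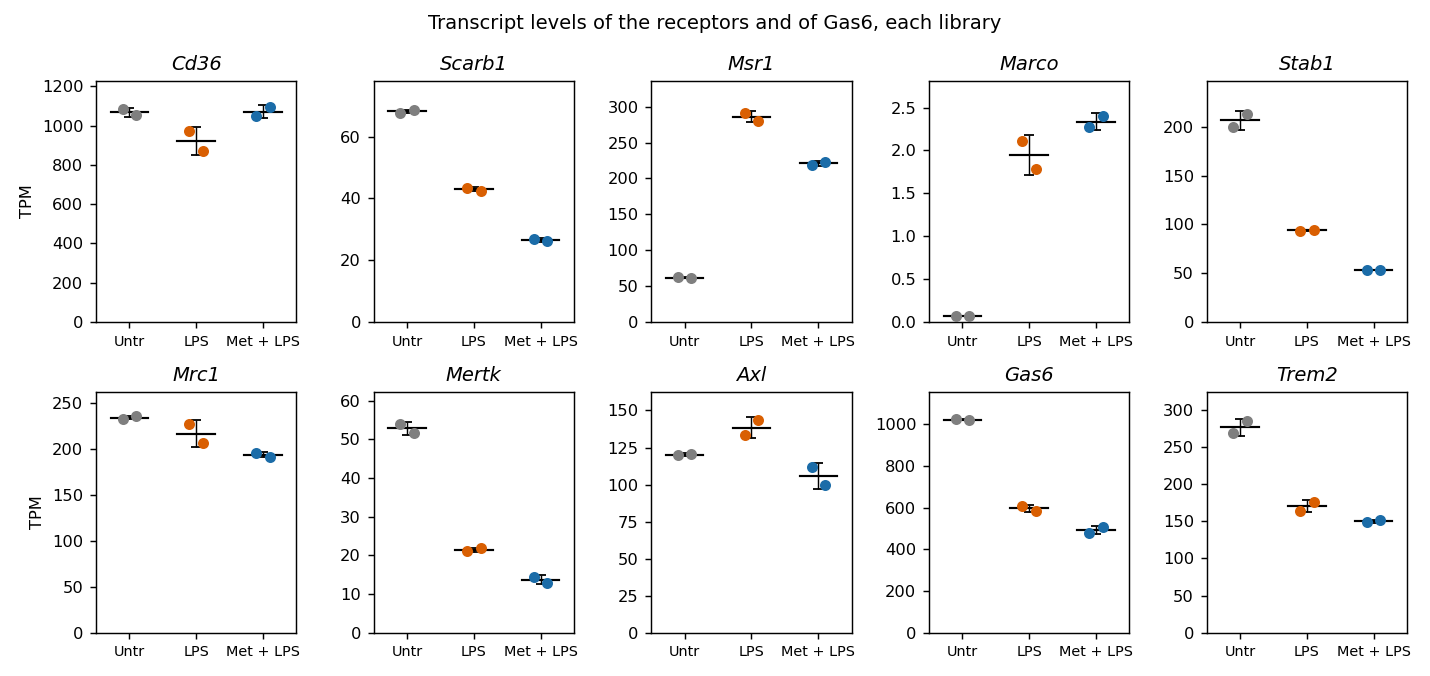
Transcript levels (TPM, linear axis from 0) of the 10 genes in each of the 6 libraries, with points for libraries, a horizontal line for the group mean and bars for the SD of 2 libraries. Msr1 and Marco rise with LPS, Mertk, Stab1, Scarb1 and Gas6 step down from untreated to LPS and again to Met + LPS, and the Cd36 values of untreated and Met + LPS libraries overlap.

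The stretch before the start of transcription was read for the 8 members that have an entry in the RefSeq promoter table (build GRCm38.p6). Msr1 and Scarb1 have none in it. The 250 bases before the RefSeq start are shown 5′ to 3′ for Mertk and Stab1, the members with the lowest fitted values among the 10 in Met + LPS against untreated cells, for Axl, the other TAM kinase, and for Marco, which was near 0 before LPS. Capitals mark GAGGAA on either strand (TTCCTC when read on the other), the core letters bound by PU.1, the macrophage lineage factor.
Mertk, chr2:128698665-128698914, plus strand: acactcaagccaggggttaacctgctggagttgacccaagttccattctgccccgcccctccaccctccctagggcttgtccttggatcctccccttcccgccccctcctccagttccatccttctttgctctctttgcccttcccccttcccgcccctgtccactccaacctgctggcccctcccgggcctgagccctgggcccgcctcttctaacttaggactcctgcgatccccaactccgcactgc
Stab1, chr14:31168642-31168891, minus strand: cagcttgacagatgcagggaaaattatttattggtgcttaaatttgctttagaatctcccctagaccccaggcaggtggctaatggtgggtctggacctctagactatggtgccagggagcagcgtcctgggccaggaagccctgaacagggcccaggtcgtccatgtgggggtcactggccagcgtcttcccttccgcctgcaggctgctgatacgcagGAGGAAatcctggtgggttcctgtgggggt
Axl, chr7:25788734-25788983, minus strand: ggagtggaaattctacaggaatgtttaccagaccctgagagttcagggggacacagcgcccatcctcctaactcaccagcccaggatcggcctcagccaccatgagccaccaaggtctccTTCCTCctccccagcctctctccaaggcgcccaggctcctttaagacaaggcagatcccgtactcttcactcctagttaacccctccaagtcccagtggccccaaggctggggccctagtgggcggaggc
Marco, chr1:120505025-120505274, minus strand: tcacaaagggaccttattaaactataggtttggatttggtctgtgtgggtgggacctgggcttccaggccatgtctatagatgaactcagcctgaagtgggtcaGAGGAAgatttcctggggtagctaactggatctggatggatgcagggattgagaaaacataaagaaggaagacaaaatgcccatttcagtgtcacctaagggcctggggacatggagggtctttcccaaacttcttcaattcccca
The PU.1 core occurred in 5 of the 8 member promoters (Marco, Mrc1, Axl, Stab1 and Trem2) and in 23.3% of the 32851 promoters of the table. In Stab1 it began 30 bases before the start, in Axl 130 and in Marco 146 bases before it, and the Mertk stretch held none. Among 6 other motifs searched on both strands, the AP-1 site TGANTCA was found in Trem2 only (6.75% of all promoters), the Maf recognition letters TGCTGA in Cd36 and Stab1 (16.1%), and the cAMP response element core TGACG in Trem2 (17.8%). The E-box CACGTG (6.02%), the NF-κB consensus (3.9%) and the interferon response element (2.98%) were not among the letters of any of the 8. The last letters of the Maf motif can form the first of an AP-1 site, but no such overlap occurred in these stretches. These matches are letters only and say nothing of binding.

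The first comparison, LPS against untreated BMDMs, asks how the receptors stood after 2 h of endotoxin. Of the 10 genes, 2 rose (Msr1 and Marco), 6 fell (Mertk, Stab1, Gas6, Trem2, Scarb1 and Cd36) and 2 did not pass the test (Mrc1 and Axl). Marco entered the test only through the groups where it was high and so had to differ, and its call adds no support to the count. Limma voom on recovered reads called Axl higher as well (adjusted p = 0.000334). Over all tested genes 16.2% rose and 60.1% fell in this comparison, so that the share of members that fell is near the background, and the members' median log2 fold change of -0.44 lies beside -0.48 for all genes. On rescaled values 5 of the 10 were higher (Msr1, Marco, Axl, Mrc1 and Cd36) against 30.6% of all genes, and 3 were lower (Mertk, Stab1 and Gas6) against 27.6%. The cut-off of the study for LPS responsiveness (log2 fold change of 2 or more in either direction, adjusted p under 0.01) was passed by 1 member, Msr1, and by 6.08% of all genes.

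The second comparison, Met + LPS against LPS alone, asks what metformin pretreatment changed. Of the 10 genes, 6 fell (Stab1, Scarb1, Mertk, Axl, Msr1 and Gas6), 0 rose by this test and 4 did not pass it (Cd36, Marco, Mrc1 and Trem2). At an unadjusted limma p under 0.05 the number higher was 1 (Cd36), and limma voom on recovered reads called that gene higher and 8 members lower, adding Mrc1 (adjusted p = 0.00233) and Trem2 (adjusted p = 0.00179). Over all tested genes 14.5% rose and 18.0% fell, and the members' median log2 fold change was -0.32 beside -0.03 for all genes. That for metformin sensitivity (log2 fold change of 0.7 or more in either direction, adjusted p under 0.01) was passed by 1 member, Stab1, and by 8.28% of all genes. The same 6 genes fell on rescaled values. This comparison and the first share the LPS libraries, so that a high value in these libraries alone would enter both with opposite sign.

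Against untreated cells, Met + LPS libraries were higher for 2 members (Msr1 and, by the same limit of the filter, Marco) and lower for 6 (Stab1, Mertk, Scarb1, Gas6, Trem2 and Mrc1), where 16.3% of all genes were higher and 58.8% lower. Cd36 and Axl did not pass. On rescaled values 5 were higher (Msr1, Marco, Cd36, Axl and Mrc1) and 5 lower (Stab1, Mertk, Scarb1, Gas6 and Trem2), beside 33.4% and 29.7% of all genes. No member reached an absolute log2 fold change of 2 in this comparison on the TPM as deposited, against 5.35% of all genes, with Stab1 at -1.93 as the nearest.

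**Figure D2:**
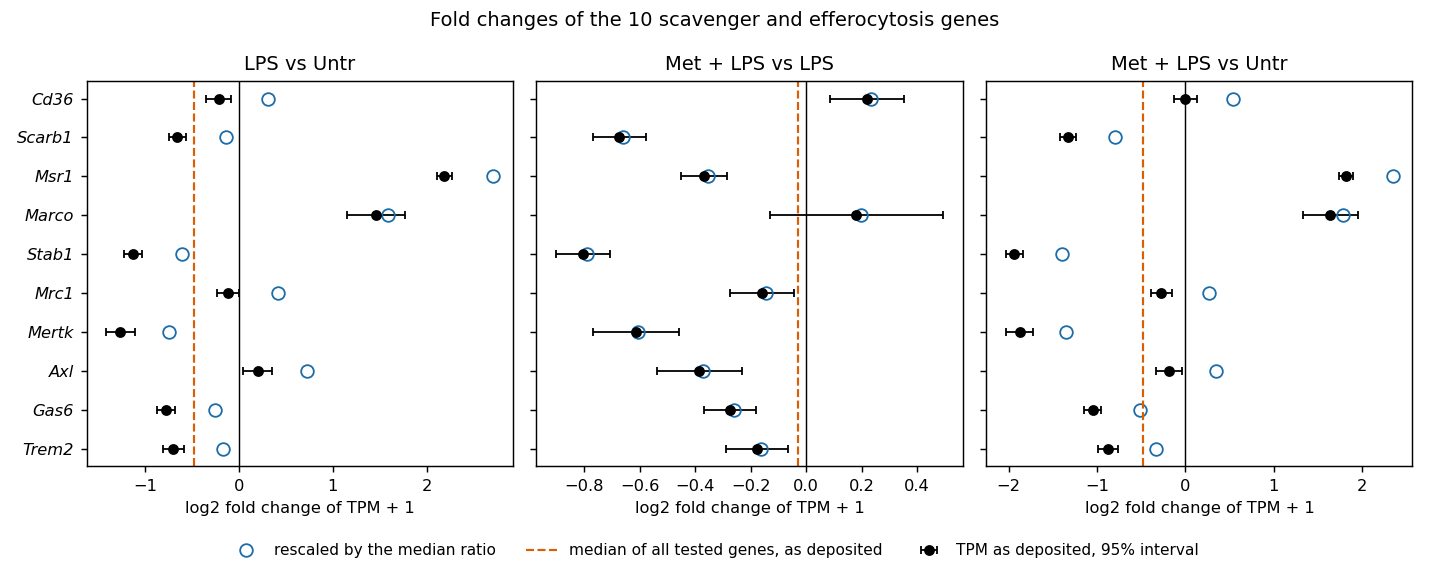
Log2 fold change of TPM + 1 for each of the 10 genes in the 3 comparisons, with filled points and 95% intervals for TPM as deposited, open points for rescaled values and a dashed line for the median of all tested genes. Rescaling moves the 2 comparisons with untreated cells to the right, which takes Cd36 and Mrc1 across 0 in the first panel, and leaves the Met + LPS against LPS panel nearly unchanged.

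Among the class A scavenger receptors, Msr1 (macrophage scavenger receptor 1, ENSMUSG00000025044, chr8:39581685-39642673, minus strand, GRCm38) takes up acetylated LDL and bacterial lipids. Its level was 62.5 and 61.4 TPM in untreated libraries, 291 and 280.2 TPM in LPS libraries, and 219 and 223 TPM in Met + LPS libraries. The 3 groups did not overlap, and both Met + LPS libraries lay between the other groups. The mean after LPS was 4.61-fold that of untreated cells (286 ± 7.76 against 61.9 ± 0.759 TPM, SD, n = 2 each). The fitted log2 fold change was 2.19 (SE 0.035), with a limma adjusted p of 2.4e-08. After metformin pretreatment Msr1 stood at 77.4% of its LPS level, a log2 fold change of -0.37 (limma adjusted p = 0.000297), and at 3.57-fold its untreated level. Msr1 passed the test in all 3 comparisons and in every alternative run, leave-one-out fits included.

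Marco (macrophage receptor with collagenous structure, ENSMUSG00000026390, chr1:120474538-120505024, minus strand) binds bacteria and inhaled particles and is known as an inducible receptor. It was at 0.0683 and 0.0725 TPM in untreated libraries, 2.12 and 1.78 TPM in LPS libraries, and 2.27 and 2.41 TPM in Met + LPS libraries. These values rest on 1 read in each untreated library, against 31 and 25 reads in the LPS and 33 and 41 reads in the Met + LPS libraries. Both LPS-containing groups lay above the untreated libraries, and both Met + LPS libraries lay above the LPS libraries by less than 1 TPM. Summed over libraries and corrected for depth, the ratio of LPS to untreated reads was 28.1, with an exact 95% interval of 7.42 to 238 that covers counting error only. For Met + LPS against untreated libraries it was 33.7 (9.01 to 284). The fitted log2 fold change was 1.46 (SE 0.13), which understates a change from so low a level, and limma voom on recovered reads gave 4.25. No p is given for these values, since the filter kept Marco only for its level after LPS. Between Met + LPS and LPS the log2 difference was 0.18, with an interval of -0.13 to 0.49 and a limma adjusted p of 0.296. Even after LPS, Marco was the lowest of the 10 genes.

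Of the class B receptors, Cd36 (ENSMUSG00000002944, chr5:17781690-17888801, minus strand), the receptor for oxidised LDL and long-chain fatty acids, was the most abundant member in every group. Untreated libraries held 1085 and 1052 TPM, LPS libraries 971 and 871 TPM, and Met + LPS libraries 1047 and 1093 TPM. Both LPS libraries lay below all others, while untreated and Met + LPS libraries overlapped. The LPS mean was 86.2% of the untreated mean (921 ± 71.0 against 1069 ± 22.8 TPM), a log2 fold change of -0.22 (SE 0.056, limma adjusted p = 0.00934), which turned to 0.31 (adjusted p = 0.00216) on rescaled values. That call sits at the edge of the threshold, and the value was -0.14 without LPS replicate 2 and -0.30 without LPS replicate 1. With metformin pretreatment Cd36 stood at 116% of its LPS level (1069.9 ± 32.3 TPM), a log2 difference of 0.22 that did not pass (limma adjusted p = 0.018). Without LPS replicate 1 it was 0.30 and passed (adjusted p = 0.00527), and without LPS replicate 2 it was 0.14 and did not. Against untreated cells the difference was 0.0016 on the log2 scale, with an interval of -0.13 to 0.14. On rescaled values it was 0.54 (limma adjusted p = 0.000133), so this near-equality depends on the scaling.

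Scarb1 (scavenger receptor class B type 1, ENSMUSG00000037936, chr5:125277087-125341094, minus strand), the HDL receptor that passes cholesteryl ester between cell and lipoprotein, followed another course. Its level was 67.7 and 68.5 TPM in untreated, 43.4 and 42.5 TPM in LPS, and 27.0 and 26.1 TPM in Met + LPS libraries. The 3 groups stood in 3 separate steps, with an SD of at most 0.617 TPM within a group. LPS libraries had 63.0% of the untreated mean, a log2 fold change of -0.65 (SE 0.039, limma adjusted p = 8.94e-06), and -0.14 on rescaled values, where it no longer passed (adjusted p = 0.0177). Met + LPS libraries had 61.9% of the LPS mean, a log2 fold change of -0.67 (limma adjusted p = 4.91e-05), and -0.66 on rescaled values. Relative to untreated cells 39.0% of the level was left. In Met + LPS against LPS the 95% interval of Scarb1 was -0.77 to -0.58 and that of Cd36 0.084 to 0.35, and the difference between the 2 genes was not tested.

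Stab1 (stabilin-1, ENSMUSG00000042286, chr14:31139013-31168641, minus strand), an endocytic receptor for matrix fragments such as SPARC and for phosphatidylserine, was at 199.9 and 213 TPM in untreated libraries. It was at 93.6 and 94.02 TPM in LPS libraries and at 53.1 and 53.5 TPM in Met + LPS libraries. LPS libraries were at 45.4% of the untreated mean, and Met + LPS libraries at 56.8% of the LPS mean and 25.8% of the untreated mean. The log2 fold changes were -1.13 (SE 0.041, limma adjusted p = 9.27e-07) for LPS and -0.80 (limma adjusted p = 2.86e-05) for metformin pretreatment, and both were lower on rescaled values too (-0.61 and -0.79). Of the 12755 genes, 3.27% had a value lower than that of Stab1 in Met + LPS against LPS. Of its 10288 exon bases, 112 (1.1%) are shared with Nt5dc2 on the opposite strand, which reached 99.1 TPM, and whether reads were counted by strand is not given in the sources used here.

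The mannose receptor Mrc1 (CD206, ENSMUSG00000026712, chr2:14229392-14332057, plus strand), a C-type lectin for mannosylated and sulphated glycoproteins and a common marker of alternatively activated macrophages, was at 233 and 236 TPM in untreated, 227 and 207 TPM in LPS, and 196 and 192 TPM in Met + LPS libraries. The groups did not overlap, but the LPS libraries lay farther apart than those of either other group. The LPS mean was 92.6% of the untreated mean, with a log2 difference of -0.11 (interval -0.23 to 0.0033, limma adjusted p = 0.0648), and 0.41 on rescaled values (adjusted p = 0.000244). Met + LPS libraries were at 89.4% of the LPS mean, with a log2 difference of -0.16 and a limma adjusted p of 0.0331. Against untreated cells Mrc1 was lower by the TPM as deposited (-0.27, limma adjusted p = 0.00163) and higher by the rescaled values (0.27, adjusted p = 0.00185).

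The TAM kinase Mertk (ENSMUSG00000014361, chr2:128698956-128802894, plus strand), the main receptor for apoptotic cell uptake in resting macrophages, was at 54.1 and 51.7 TPM in untreated libraries. LPS libraries had 21.1 and 21.8 TPM and Met + LPS libraries 14.5 and 12.9 TPM. Each group lay clear of the others. LPS libraries were at 40.6% of the untreated mean (21.5 ± 0.488 against 52.9 ± 1.66 TPM), a log2 fold change of -1.26 (SE 0.064, limma adjusted p = 4.22e-06). On rescaled values it was -0.75 (adjusted p = 7.52e-05). Metformin pretreatment went with a further step to 63.8% of the LPS level (log2 fold change -0.61, limma adjusted p = 0.000451), which left 25.9% of the untreated level. Both Mertk calls held in every alternative run.

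Axl (ENSMUSG00000002602, chr7:25757273-25788705, minus strand), the TAM kinase known for its expression in inflamed macrophages, was at 119.7 and 121 TPM in untreated, 134 and 143 TPM in LPS, and 112 and 99.6 TPM in Met + LPS libraries. LPS libraries were the highest and Met + LPS libraries the lowest, without overlap. The LPS mean was 115% of the untreated mean, a log2 difference of 0.20 that did not pass (limma adjusted p = 0.0216), and 0.72 on rescaled values, which passed (adjusted p = 8.12e-05). With metformin pretreatment Axl fell to 76.5% of its LPS level, a log2 fold change of -0.39 (SE 0.063, limma adjusted p = 0.00298). Without LPS replicate 2 the adjusted p of this fall was 0.0219 and without Met + LPS replicate 2 it was 0.0114. Against untreated cells Axl was at 88.1%, with a log2 difference of -0.18 (limma adjusted p = 0.0306) that turned to 0.35 on rescaled values.

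The balance of the TAM kinases can be read within a library, where scaling cancels. The ratio of Axl to Mertk was 2.21 and 2.34 in untreated libraries, 6.31 and 6.57 in LPS libraries, and 7.72 and 7.72 in Met + LPS libraries, so that the 3 groups did not overlap. With 2 libraries against 2, an exact permutation test of such a ratio cannot go below p = 0.333. Tyro3, the remaining TAM kinase, was at 0.106 and 0.0901 TPM in untreated and at 1.36 and 1.33 TPM in LPS libraries (where Axl was at 134 and 143 TPM), and at 0.704 and 0.984 TPM in Met + LPS libraries. It reached the filter only through the LPS libraries, so its fitted log2 difference of 1.09 between LPS and untreated cells is a description.

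**Figure D3:**
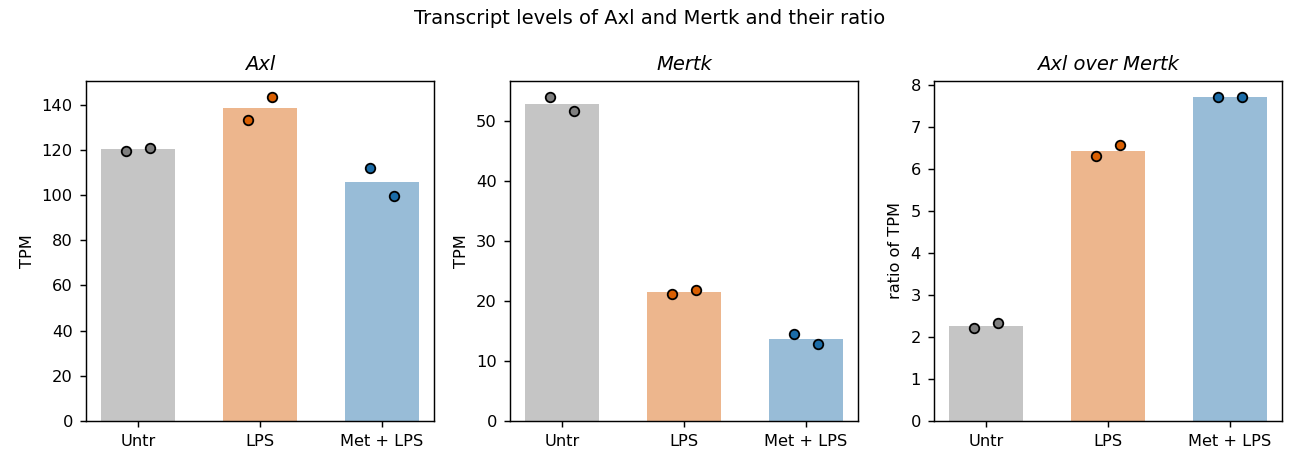
Levels of Axl and of Mertk (TPM) and their ratio in each library, with bars from 0 for the group mean and points for the 2 libraries of a group. The ratio lies between 2.21 and 2.34 in untreated, 6.31 and 6.57 in LPS and at 7.72 in both Met + LPS libraries, while Axl and Mertk themselves differ in which group is highest.

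The ligand Gas6 (growth arrest-specific 6, ENSMUSG00000031451, chr8:13465374-13494490, minus strand) was at 1023 and 1021 TPM in untreated libraries, second only to Cd36 among the 10. It was at 609 and 585 TPM in LPS libraries and at 480.3 and 507 TPM in Met + LPS libraries. Every LPS library lay below every untreated one, and every Met + LPS library below every LPS one. The LPS mean was 58.4% of the untreated mean (597 ± 17.6 against 1022 ± 1.12 TPM), a log2 fold change of -0.78 (SE 0.038, limma adjusted p = 3.78e-06), and -0.25 on rescaled values (adjusted p = 0.00102). Metformin pretreatment went with 82.7% of the LPS level, a log2 fold change of -0.27 (limma adjusted p = 0.00155). This smaller step did not pass without LPS replicate 1 (adjusted p = 0.0101) or without Met + LPS replicate 1 (0.0103). The other TAM ligand, Pros1, was at 43.3 and 42.5 TPM in untreated, 33.4 and 32.2 TPM in LPS, and 17.7 and 16.1 TPM in Met + LPS libraries. It fell by 0.92 on the log2 scale with metformin pretreatment (limma adjusted p = 5.16e-05), and the ratio of Gas6 to Pros1 was 18.3 and 18.1 in LPS but 27.2 and 31.4 in Met + LPS libraries.

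Trem2 (triggering receptor expressed on myeloid cells 2, ENSMUSG00000023992, chr17:48346401-48354147, plus strand) was at 268 and 284 TPM in untreated, 164 and 176 TPM in LPS, and 149 and 152 TPM in Met + LPS libraries. The groups did not overlap, with a narrow gap between LPS and Met + LPS libraries. The LPS mean was 61.5% of the untreated mean, a log2 fold change of -0.70 (SE 0.046, limma adjusted p = 1.38e-05), and -0.17 on rescaled values, where it did not pass (adjusted p = 0.0147). Metformin pretreatment left 88.4% of the LPS level, with a log2 difference of -0.18 (limma adjusted p = 0.0198). The adaptor Tyrobp was at 4954 and 5008 TPM in untreated, 3759 and 3616 TPM in LPS, and 2953 and 2937 TPM in Met + LPS libraries. Unlike Trem2, it passed the test in Met + LPS against LPS, with a log2 fold change of -0.32 (limma adjusted p = 0.000422). The difference between the 2 genes was not tested.

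Scavenger receptors outside the 10 formed a list of 13 genes, of which 8 were expressed enough to be tested. The counts of this and the following lists stand beside the shares of all tested genes, which were 16.2% higher and 60.1% lower with LPS, 30.6% and 27.6% on rescaled values, and 14.5% higher and 18.0% lower in Met + LPS against LPS. With LPS 2 of the 8 rose and 5 fell, with a median log2 fold change of -0.38, and on rescaled values 3 were higher and 2 lower. Olr1, the lectin-like receptor for oxidised LDL, was at 0.147 and 0.0782 TPM in untreated, 33.1 and 31.6 TPM in LPS, and 26.1 and 20.5 TPM in Met + LPS libraries. Like Marco it passed the filter only through the groups given LPS, so its call adds no support to the count of genes that rose. Cxcl16, a membrane-bound chemokine that also binds oxidised LDL, rose from 133 and 137 TPM to 329 and 309.6 TPM (log2 fold change 1.24). Cd163, the haemoglobin-haptoglobin receptor, was at 16.8 and 16.5 TPM in untreated, 6.28 and 6.15 TPM in LPS, and 2.88 and 2.11 TPM in Met + LPS libraries. It fell by 1.29 on the log2 scale with LPS and by 1.05 with metformin pretreatment (limma adjusted p = 0.000448). With metformin pretreatment 1 of the 8 rose and 4 fell against LPS alone (median -0.19).

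The list of other apoptotic cell receptors and bridging proteins held 19 genes, of which 16 were tested. With LPS 3 rose and 11 fell (median -0.38), and on rescaled values 6 were higher and 5 lower. Among those higher on both scales is Tyro3, which reached the filter only through the LPS libraries, so its call adds no support to these counts. The integrin subunit Itgav rose from 60.5 and 59.0 TPM to 395 and 392 TPM (log2 fold change 2.70), while its partner Itgb3 fell from 25.4 and 26.4 TPM to 9.93 and 11.3 TPM (-1.21). The phospholipid receptors Cd300lf and Cd300a fell by 1.52 and by 1.36 on the log2 scale. Metformin pretreatment went with 4 that rose and 7 that fell (median -0.18). Itgb3 was back at 31.3 and 26.9 TPM (log2 fold change 1.37, limma adjusted p = 6.65e-05), above both untreated libraries. The complement chains C1qa, C1qb and C1qc, which opsonise dying cells, were lower by 0.79, 0.74 and 0.53 on the log2 scale in the same comparison, each with an adjusted p under 0.01. Tyrobp, Pros1 and the C1q chains were singled out after their values were seen.

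Engulfment machinery, the guanine nucleotide exchange factors, Rac proteins and adaptors that close the phagocytic cup, had 14 of 15 genes tested. With LPS 3 rose and 6 fell (median -0.10), but on rescaled values 10 were higher and 4 lower. Abl1, a kinase upstream of Crk, fell from 32.0 and 33.2 TPM to 6.11 and 6.19 TPM (log2 fold change -2.23). Rubcn (Rubicon), required for LC3-associated phagocytosis, fell by 1.76 on the log2 scale and Elmo2 by 1.27. Relative to LPS alone, 10 of the 14 fell and 2 rose in Met + LPS libraries (median -0.25), where 18.0% of all genes fell and 14.5% rose, with Abl1 (0.40) and Rubcn (0.41) as the 2 that rose. Among 10 Trem2 partners and relatives 6 were tested. With LPS 5 of them fell and 1 rose (median -0.49), and on rescaled values 1 was lower and 1 higher. Inpp5d (SHIP1), the phosphatase that dampens Trem2 signals, fell by 1.52 on the log2 scale. After metformin pretreatment 3 of the 6 fell against LPS alone, and all 6 values were below 0 (median -0.17).

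Of 6 don't-eat-me signals and inhibitory receptors 5 were tested, of which 2 rose and 2 fell with LPS (median -0.24; on rescaled values 3 were higher and 0 lower, with Sirpa lowest at -0.13 and a limma adjusted p of 0.0231), and 1 rose and 1 fell in Met + LPS against LPS (median -0.14). The inhibitory receptor Lilrb4a was at 238 and 250.2 TPM in LPS and at 498 and 565 TPM in Met + LPS libraries, which is 1.12 on the log2 scale (limma adjusted p = 5.59e-05). Receptor shedding, by which Adam17 cuts Mertk and other receptors from the surface, had 5 of 6 genes tested. With LPS 4 rose and 1 fell (median 0.75), and on rescaled values 4 were higher and 0 lower, as all 5 values were above 0. Rhbdf2 (iRhom2), the carrier of Adam17 to the surface, rose from 39.9 and 39.9 TPM to 193 and 204 TPM (log2 fold change 2.29). Against LPS alone, 1 rose and 1 fell with metformin pretreatment (median -0.11).

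All 14 nuclear receptors, Maf factors and related regulators, among them known regulators of Cd36 and Mertk, were tested. With LPS 4 rose and 9 fell (median -0.77), and on rescaled values 4 were higher and 7 lower. Rxra and Pparg, nuclear receptor partners known to induce Cd36 in macrophages, fell with LPS, with log2 fold changes of -1.70 and -1.68. Tfec, Mitf and Ppargc1b rose, with log2 fold changes of 3.79, 2.31 and 2.20. Between Met + LPS and LPS libraries 5 rose and 4 fell (median 0.11). Pparg was at 33.9 and 34.4 TPM in LPS and 80.1 and 76.7 TPM in Met + LPS libraries (log2 fold change 1.17, limma adjusted p = 8.59e-06). Klf4 (1.66) and Ppard (1.05) rose as well. The Pparg values of the 2 Met + LPS libraries lay between those of LPS and untreated libraries. From high to low, the order of its 3 group means was untreated, Met + LPS, LPS. Cd36 values of untreated and Met + LPS libraries overlapped. On rescaled values Pparg stood at -1.16 after LPS and at 0.035 in Met + LPS, both against untreated cells. Cd36 stood at 0.31 and 0.54 in the same 2 comparisons. A link between the 2 genes was not tested.

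**Figure D4:**
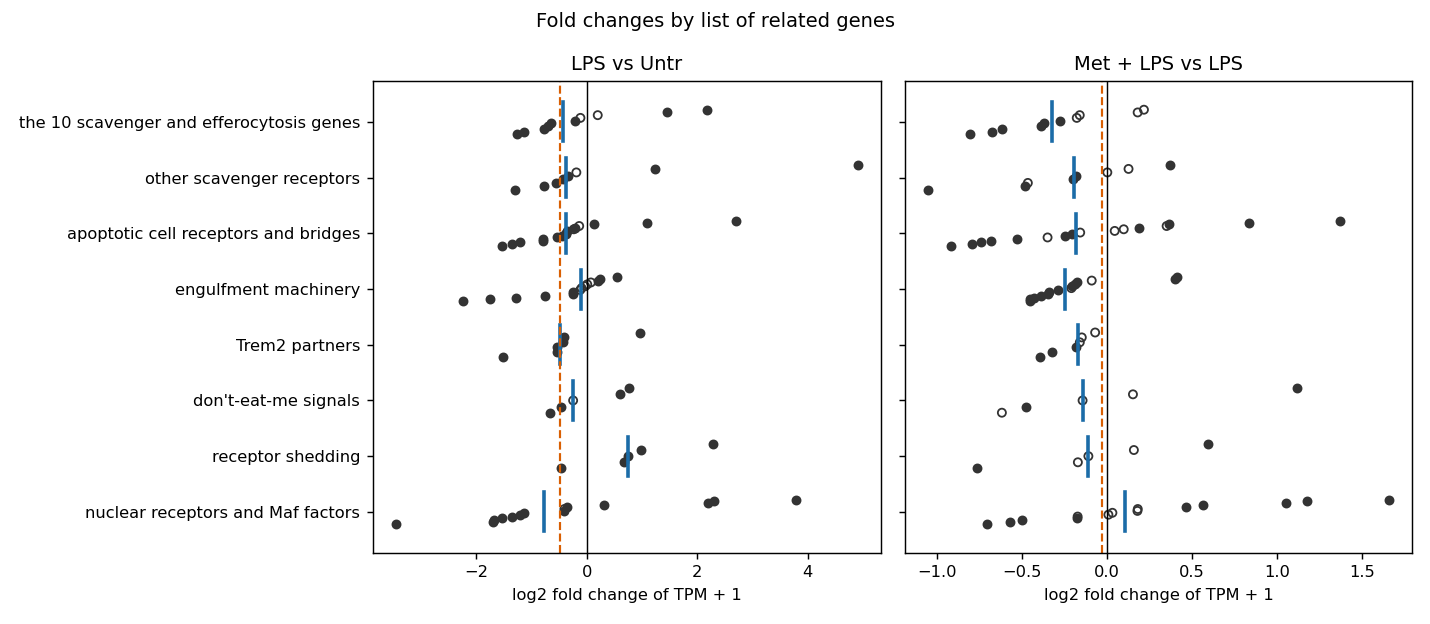
Log2 fold change of TPM + 1 for the 10 genes and for 7 lists of related genes in LPS against untreated cells (left) and Met + LPS against LPS (right), with filled points for genes with an adjusted p under 0.01, open points for the others, a blue bar for the median of a list and a dashed line for the median of all tested genes. On the right the median of the 10 genes lies at -0.32, and that of the nuclear receptors and Maf factors, at 0.11, is the only one above 0.

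For the 5 members that passed the test in both main comparisons, the 3 genes with the closest course over the 6 libraries were found by the Euclidean distance between log2(TPM + 1) values centred on each gene's mean. For Msr1 these were Tnip1 (distance 0.0775), an inhibitor of NF-κB signalling, the zinc transporter Slc39a14 (0.106) and the acid phosphatase Acp5 (0.110). For Mertk they were Wdr6 (0.124), the sterol hydroxylase Cyp27a1 (0.141) and the scavenger receptor cysteine-rich protein Ssc4d (0.176). For Stab1 they were the sugar phosphate exchanger Slc37a2 (0.105), Ssc4d again (0.193) and the organic anion transporter Slco2b1 (0.200). Scarb1 lay nearest to the neonatal Fc receptor Fcgrt (0.0654), Tsc22d4 (0.0850) and Pcp4l1 (0.0898), and Gas6 nearest to Zfp322a (0.0637), Rfng (0.0717) and Pole (0.0736). Ssc4d had means of 6.10, 1.99 and 0.881 TPM in untreated, LPS and Met + LPS libraries, and Slco2b1 of 4.65, 1.36 and 0.358 TPM. At such levels the pseudocount of 1 understates changes, so a small distance does not mean an equal fold change of TPM. These distances describe 6 libraries in 3 groups.

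The summed level of the 10 macrophage markers also declined from untreated to LPS to Met + LPS libraries, the order seen for Mertk, Stab1, Scarb1, Gas6, Mrc1 and Trem2. Most of that sum is Lyz2, with means of 34912, 26835 and 21292 TPM, and single markers took other courses. Cd14 (955 to 2763 TPM), Adgre1 (1543 to 1717 TPM) and Spi1 (468 to 609 TPM) had higher means in LPS than in untreated libraries, and Cd68 (4777 and 4783 TPM) was close in LPS and Met + LPS libraries. The part of these markers in the results was not tested. Msr1 and, by the limit of the filter, Marco were higher in both LPS-containing groups than in untreated libraries. Axl was highest in LPS libraries, though its difference from untreated cells did not pass. The marker sum was lower in both LPS-containing groups than in untreated libraries, and no link between these courses was tested.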

How the data were processed

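Primary mouse BMDMs were profiled by RNA-seq in 3 groups of 2 libraries. The authors enriched poly-A RNA, aligned single-end reads to GRCm38 (annotation release 94) with STAR 2.6.1d, handled alignments with SAMtools 1.9, counted reads with featureCounts (Subread 1.6.3) and deposited TPM per gene and library; how counts became TPM is not given in the sources used here. The DESeq2 test of the authors needs counts and was not used.

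The 12755 genes that reached 1 TPM in 2 or more libraries went into limma 3.58.1 (R 4.3.3), with log2(TPM + 1) as values, eBayes with trend, all 6 libraries in 1 fit with 3 residual degrees of freedom, Benjamini-Hochberg adjustment over all of them, and an adjusted p under 0.01. A pseudocount of 1 understates changes of low genes. Times exon length (GENCODE, 54409 genes matched), 96.4% to 96.6% of values above 0 were whole multiples (within 0.05 read) of a step taken as 1 read. Intervals of the Marco read ratios cover counting error only. Those of log2 fold changes come from the limma fit and rest on the spread between libraries. Members and lists were chosen with earlier results of these data known. Named were all 10 members, of each list up to 3 genes per direction and main comparison past the test and with a log2 change of 1 or more either way, and the 3 nearest genes of members that passed in both main comparisons. A gene that this rule names is not reported here. Alternatives were a pseudocount of 0.1, no filter, 5 TPM, rescaling, a fit on just the compared groups, the replicate block, no trend, an adjusted p under 0.05, a fold cut-off of 1, leaving out each library, and limma voom on recovered reads, with its rescaled form added after seeing the data. Tables and plots used Python 3.11.15, pandas 2.3.3, scipy 1.17.1 and matplotlib 3.10.9.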

Additional observations from a re-analysis of the deposited data

How the results depend on the processing

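The scaling of the libraries was the choice that moved the most values. Rescaling by the median ratio raised the number of members higher after LPS from 2 to 5 on TPM and from 3 to 5 in limma voom on recovered reads, and in Met + LPS against untreated cells from 2 to 5 in both. On TPM it lowered the number of members lower after LPS from 6 to 3. Cd36 turned to 0.31 in both after LPS, Mrc1 to 0.41 after LPS and to 0.27 in Met + LPS against untreated cells, and Axl to 0.35 in the latter. Of the lists after LPS, other scavenger receptors then had 2 lower, apoptotic cell receptors 6 higher and 5 lower, engulfment machinery 10 higher, Trem2 partners 1 lower, and the don't-eat-me and shedding lists 0 lower by limma, while shedding had 2 higher in Met + LPS against LPS. The 5-TPM filter left out Marco, so that 1 member was higher in each comparison with untreated cells. In Met + LPS against LPS, Cd36 made the number of higher members 1 with that filter, in both voom fits, at an adjusted p under 0.05 and without LPS replicate 1 (0 to 1 over the left-out libraries).

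The cut-offs after LPS were passed by 1 member, by 2 with a pseudocount of 0.1 and in both voom fits, which added Marco, and by 4 at a log2 fold change of 1. In Met + LPS against LPS that cut-off left 0 by limma. Against untreated cells, 0 became 1 with a pseudocount of 0.1, with rescaling and in voom, 2 in rescaled voom, and 6 at a cut-off of 1. Cd36 in Met + LPS against untreated cells ranged from -0.029 to 0.032 over the left-out libraries and was -0.02 without untreated replicate 2. Rescaling moved it to 0.54.

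Of the member values under alternatives, 110 of the values after LPS, 110 in Met + LPS against LPS and 116 in Met + LPS against untreated cells kept direction and side of the threshold. Of the remaining values after LPS, 4 changed direction, 5 gained a call and 10 lost one. In Met + LPS against LPS 11 gained a call and 8 lost one. Against untreated cells, 6 of the Met + LPS values changed direction, 4 gained a call and 3 lost one. The fall of Cd36 after LPS passed on TPM as deposited with an adjusted p of 0.00934, and lost its call in 8 of the alternatives (0.0109 to 0.0724). The call of Axl in Met + LPS against LPS was also lost with no filter (0.0168), with the compared groups only (0.0159) and without a trend (0.0138), that of Gas6 without a trend (0.012), and that of Mrc1 in Met + LPS against untreated cells in 3 fits that left out a library (0.0137 to 0.0188). The causes were not tested.

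Same-numbered libraries did not deviate together (correlations of -0.00365, 0.0284 and 0.00624), so the replicate number was not used as a pairing. With the replicate block the adjusted p of Cd36 after LPS was 0.0113 and that of Trem2 in Met + LPS against LPS 0.00836.

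Over all genes, 776 passed the cut-offs after LPS, 1512 with a pseudocount of 0.1, 1594 in voom, 1377 in rescaled voom and 3556 at a cut-off of 1. For Met + LPS against untreated cells these were 682, 1457, 1561, 1299 and 3714. With rescaling, 3908 genes were higher after LPS in place of 2069 on TPM and 4253 in place of 2178 in voom, and 3522 lower in place of 7665 on TPM and 4026 in place of 7872 in voom. In Met + LPS against untreated cells, 4255 were higher in place of 2082 on TPM and 4578 in place of 2274 in voom, and 3789 lower in place of 7494 on TPM and 4329 in place of 7731 in voom. In Met + LPS against LPS, the 1855 higher genes became 1204 with the compared groups only, 2794 at an adjusted p under 0.05 and as few as 1164 with a library left out. The 2301 lower genes became 1502 with no filter, 1458 with the compared groups only and 1397 to 1486 with a library left out, and the 1056 past the cut-offs became 455 at a cut-off of 1.

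The difference of Marco between LPS and Met + LPS rests on 25 to 41 reads a library, and its 95% interval on the log2(TPM + 1) scale was -0.13 to 0.49.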
